A study of Mus musculus with 18 samples.

Results

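The 9 genes described here are 6 genes of the STAT family, Stat2, Stat3, Stat4, Stat5a, Stat5b and Stat6, and 3 genes of the SOCS family, Socs1, Socs2 and Socs3. They were chosen by name from the 47729 genes of the count table, and each symbol matched 1 gene. Other STAT genes were not analysed here. RNA-Seq was done on colon RNA of 9 C57BL/6 mice in 3 groups of 3. Naive WT mice (mice 1 to 3) were the controls of the WT genotype. WT CAC mice (mice 4 to 6) were WT mice given 1 dose of azoxymethane (AOM, 10 mg per kg), a carcinogen that acts on the colon, and 3 cycles of 2.5% dextran sulfate sodium (DSS), which injures the colon epithelium, so that colitis-associated cancer (CAC) develops. Cldn2TG CAC mice (mice 7 to 9) had the same AOM/DSS treatment and carried a Cldn2 transgene, Claudin-2TG in the labels, under the villin promoter, which is active in the intestinal epithelium. The ages of the mice are not given in the sources used here, the study describes its mice as matched by age and sex, and the protocol text of the control samples also names AOM/DSS although their treatment label is Control. No Cldn2TG mice without AOM/DSS were sequenced, so genotype and treatment cannot be told apart where Cldn2TG CAC is set against naive WT.

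STAT proteins are transcription factors that wait in the cytoplasm until a cytokine binds its receptor. Janus kinases (JAKs) on the receptor then phosphorylate them, and STAT dimers enter the nucleus and switch on target genes. Among these targets are SOCS genes, whose products bind the receptors and JAKs and shut the signal off, so that the SOCS mRNA level is commonly read as a sign of recent STAT activity. In the colon, STAT3 is known for its part in epithelial repair and tumour growth after injury, STAT4 for the response of T and NK cells to interleukin 12, STAT6 for that to interleukins 4 and 13, the STAT5 pair for growth hormone, prolactin and interleukin 2, and STAT2 for the response to type I and III interferons. STAT activity itself depends on phosphorylation, which RNA-Seq does not measure.

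Socs3, Socs1, Stat2 and Stat4 are shown by the sequence before their start sites because their mRNA differed most between the groups. RefSeq (GRCm38.p6) gave 11 promoter windows of 250 bases before and 50 after a start site, for 8 of the 9 genes and not for Socs2. They were searched for TTC and GAA with 3 bases (TTCNNNGAA) or 4 bases between them, the palindromes that STAT dimers bind, and on both strands for 2 GAAA runs with 2 bases between them, the core of the element that interferon-activated STAT2 complexes bind, which was added after the sequences had been seen. TTCNNNGAA was in 8.30% of all 32851 promoter windows of this length, the form with 4 bases between in 6.95% and the paired GAAA in 3.44%. The 250 bases before each start site are printed 5′ to 3′ along the gene's strand, with the matches in capitals.

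Socs3 (chr11:117969367-117969616, minus strand): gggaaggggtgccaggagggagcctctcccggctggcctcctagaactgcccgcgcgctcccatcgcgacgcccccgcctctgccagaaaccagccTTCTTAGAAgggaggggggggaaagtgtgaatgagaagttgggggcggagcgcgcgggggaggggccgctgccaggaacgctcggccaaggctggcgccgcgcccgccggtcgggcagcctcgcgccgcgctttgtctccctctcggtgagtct
Socs1 (chr16:10785537-10785786, minus strand): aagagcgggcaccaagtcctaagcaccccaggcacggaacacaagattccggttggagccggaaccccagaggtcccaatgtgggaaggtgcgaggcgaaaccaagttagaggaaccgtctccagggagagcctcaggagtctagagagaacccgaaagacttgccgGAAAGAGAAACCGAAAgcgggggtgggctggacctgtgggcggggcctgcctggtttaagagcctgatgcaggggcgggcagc
Stat2 (chr10:128270248-128270497, plus strand): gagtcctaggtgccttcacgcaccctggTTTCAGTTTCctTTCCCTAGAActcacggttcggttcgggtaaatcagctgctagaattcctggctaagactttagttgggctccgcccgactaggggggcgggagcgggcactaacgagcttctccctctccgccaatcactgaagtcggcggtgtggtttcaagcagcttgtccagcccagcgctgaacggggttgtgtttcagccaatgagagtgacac
Stat4, second window (chr1:52007990-52008239, plus strand): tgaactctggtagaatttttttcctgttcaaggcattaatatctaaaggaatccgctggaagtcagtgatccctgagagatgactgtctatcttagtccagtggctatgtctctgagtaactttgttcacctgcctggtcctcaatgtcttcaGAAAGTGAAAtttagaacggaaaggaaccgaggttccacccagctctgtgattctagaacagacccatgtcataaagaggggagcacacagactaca

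Socs3 held 1 match to TTCNNNGAA, at position -154 from the start site of its window, which lies inside the annotated gene. Stat2 held 1 palindrome with 4 bases between at -210 and 1 paired GAAA, read on the other strand, at -222. Socs1 held 2 matches to the paired GAAA that overlap each other, at -83 and -77, and no match to either palindrome. The first Stat4 window held no match and the second, which lies inside the gene, held GAAAGTGAAA at -97. In the windows of Stat3, Stat5a, Stat5b and Stat6 none of these letters was found. These are matches of letters and no binding was measured.

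The libraries held 14142711 to 22262546 counts on genes, and 3 counts corresponded to 0.135 to 0.212 CPM, the count scaled to a common library size, when these totals alone are used. These limits cover counting error only. Levels per mouse are in CPM that are also scaled by TMM factors, which even out differences in RNA composition between libraries. The Cldn2 level was 119 to 137 CPM in WT CAC and 208 to 251 CPM in Cldn2TG CAC mice, so the transgenic libraries were above those of treated WT mice, while naive WT mice had 191 to 259 CPM. Naive mouse 1 was the one library with Xist (214 CPM) and almost no counts of Y-linked genes (at most 0.199 CPM), while the other 8 libraries had the reverse. WT CAC mouse 4 lay nearer to the naive mean over all genes, at a root mean square log2 distance of 0.667, than WT CAC mice 5 and 6, at 0.910 and 1.01. Without naive mouse 1 the log2 fold changes in WT CAC against naive WT were 3.36 for Socs3, 1.25 for Socs1 and 2.11 for Stat4, and calls of members that leaving out mouse 4 changes are given with each member.

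In naive colon the genes covered a wide range of levels, compared here as CPM per kb of exon because the exon lengths differ. Stat6 had the highest level, 22.8 CPM per kb ± 3.47 (SD, n = 3), and was followed by Stat3 at 16.7 ± 0.727 and Stat2 at 9.07 ± 2.61. Stat5b had 4.26 ± 0.347 and its paralogue Stat5a 1.5 ± 0.136. Stat4 was the lowest member, at 0.0654 ± 0.0256 CPM per kb. The SOCS genes lay between Stat5b and Stat5a, with Socs2 at 3.44 ± 0.197, Socs1 at 2.82 ± 0.751 and Socs3 at 2.22 ± 0.452. Mice overlapped between Socs2 and Socs1 and between Socs1 and Socs3 in this order, and no other neighbours overlapped. Exon length counts all annotated exons of a gene, whichever transcripts are made, and ran from 1220 bases for Socs1 to 9531 bases for Socs2.

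In WT CAC colon the order was different. Socs3, which ranked seventh in naive colon, ranked first, with 20.5 CPM per kb ± 16.2, but its mice overlapped those of Stat6 (20.2 ± 1.79), Stat3 (18.4 ± 5.07) and Stat2 (15.1 ± 3.79). Socs1 came next at 6.61 ± 1.81, above every mouse of Stat5b (3.77 ± 0.534). In Cldn2TG CAC colon the 3 highest were again Stat6 (19.8 ± 0.751), Stat3 (15.8 ± 0.993) and Stat2 (8.91 ± 0.522), without overlap between neighbours. Socs3 came next at 4.14 ± 1.10, and its mice overlapped those of Stat5b, which in turn overlapped those of Socs1, and Socs1 those of Socs2.

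**Figure D1:**
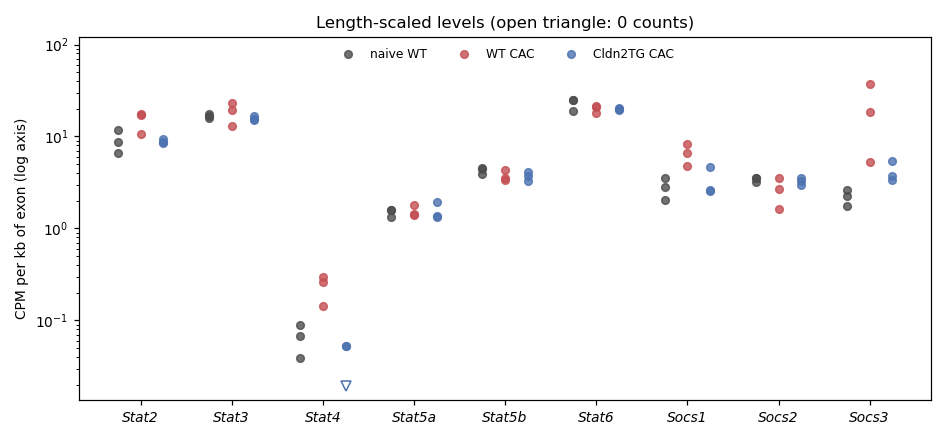
Level of each member in CPM per kb of exon (log axis), with 1 point per mouse for naive WT, WT CAC and Cldn2TG CAC, and an open triangle for the 1 mouse with 0 counts of Stat4. Stat6, Stat3 and Stat2 lie highest in naive colon, Stat4 lowest, and Socs3 spreads from 5.25 to 37.4 CPM per kb in WT CAC mice.

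The comparison of WT CAC with naive WT asks what the treatment changed in mice without the transgene. Socs3, Socs1 and Stat4 were higher in WT CAC colon, and the other 6 members did not pass the test. A gene is called when its adjusted p is under 0.05 in edgeR's quasi-likelihood test over all genes. Thus 3 of 9 members were called, beside 15.0% of the 15437 genes tested, and all 3 were higher, beside 8.04% of genes that were higher and 6.92% that were lower. An unadjusted p under 0.05, which is used below beside counts of 0, was found for 32.6% of genes. The median log2 fold change was 0.17 over the 9 members and 0.02 over all genes. The groups of these same 3 members did not overlap, as was true of 38.0% of the genes tested. Stat4 passed the filter on low counts only through its WT CAC level, so its entry into the test was tied to its difference.

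Socs3, the inhibitor that binds receptors of the interleukin 6 family and is induced by STAT3, had 7.61, 5.02 and 6.60 CPM in the 3 naive mice and 15.2, 108 and 54.0 CPM in WT CAC mice 4, 5 and 6. All WT CAC mice were above all naive mice, and they differed from each other more than the naive mice did, with mouse 5 far above mouse 4. Socs3 was 9.35-fold higher in WT CAC (log2 fold change 3.23, SE 0.68, adjusted p = 0.0281, edgeR's quasi-likelihood test). Socs3 is one of the genes the study picked for display from these samples, so its direction here is not independent evidence. Without WT CAC mouse 5, which had the highest level, the log2 fold change was 2.46 and remained called. The call was lost, at adjusted p = 0.0649 to 0.104, without mouse 1, 2, 3 or 6, and at 0.114 without the filter on low counts, while the log2 fold change over all these fits was 2.46 to 3.68.

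Socs1, an inhibitor that acts on the JAKs themselves and curbs interferon and interleukin signals, had 3.48, 2.51 and 4.34 CPM in naive and 5.79, 10.2 and 8.17 CPM in WT CAC mice. Here too mouse 4 was the lowest of its group and still above the highest naive mouse. Its log2 fold change was 1.25 (SE 0.29, adjusted p = 0.0308, edgeR), that is 2.37-fold. Leaving out mouse 1, 2, 3, 5 or 6 gave adjusted p = 0.0681 to 0.110 with log2 fold changes of 1.05 to 1.43, and lane 1 alone gave 0.0505.

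Socs2, the inhibitor of growth hormone signalling and itself a STAT5 target, did not share this direction. It had 30.7, 34.1 and 33.7 CPM in naive and 34.1, 25.7 and 15.4 CPM in WT CAC mice. Mouse 4 lay level with the highest naive mouse and mice 5 and 6 lay below all 3. The log2 fold change of -0.36 did not pass the test (95% interval -0.95 to 0.23, adjusted p = 0.363, edgeR), and without mouse 4 it was -0.65 with adjusted p = 0.0464.

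Among the STAT genes, Stat4, which carries interleukin 12 signals in T and NK cells, was the one called. It is known mainly from lymphoid and myeloid cells and was near the counting limit, with 7, 3 and 6 counts in the naive libraries and 11, 26 and 15 in the WT CAC libraries. These were 0.348, 0.151 and 0.261 CPM against 0.559, 1.15 and 1.0 CPM, and the groups did not overlap. The log2 fold change was 1.83 (SE 0.46, adjusted p = 0.0370, edgeR), without mouse 1, 2, 3, 5 or 6 the adjusted p was 0.0821 to 0.141, and DESeq2 gave 0.0594.

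Stat2, the partner of IRF9 in the interferon response, had 29.4, 38.0 and 52.2 CPM in naive and 76.1, 76.3 and 47.3 CPM in WT CAC mice. WT CAC mice 4 and 5 were above all naive mice and mouse 6 was below naive mouse 3. Its log2 fold change of 0.77 did not pass the test (95% interval 0.19 to 1.34, adjusted p = 0.0761, edgeR). It passed in DESeq2 (adjusted p = 0.0200), with all 9 libraries in 1 fit (0.0347) and without mouse 6 (0.0492).

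Stat3, the STAT of interleukins 6, 10, 11 and 22, was among the most abundant members and was not called. Its levels were 166, 160 and 152 CPM in naive and 123, 218 and 186 CPM in WT CAC mice, so that mouse 4 was below and mice 5 and 6 were above all naive mice. The log2 fold change was 0.17 (95% interval -0.28 to 0.61, adjusted p = 0.590, edgeR). Without mouse 4 it was 0.36 with adjusted p = 0.0452, and without mouse 5 it was -0.01.

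Stat5a, Stat5b and Stat6 overlapped between the groups. Stat5a had 9.54 to 11.2 CPM in naive and 9.91 to 12.7 CPM in WT CAC mice, and Stat5b, 21.4 to 25.1 and 18.6 to 24.2 CPM. Stat6, the STAT of interleukins 4 and 13, had 82.7 to 109 CPM in naive and 80.0 to 94.2 CPM in WT CAC mice. Their log2 fold changes were 0.07, -0.15 and -0.15, and their 95% intervals, which ran from -0.47 to 0.46 over the 3 genes, exclude a change of 1 log2 unit in either direction.

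**Figure D2:**
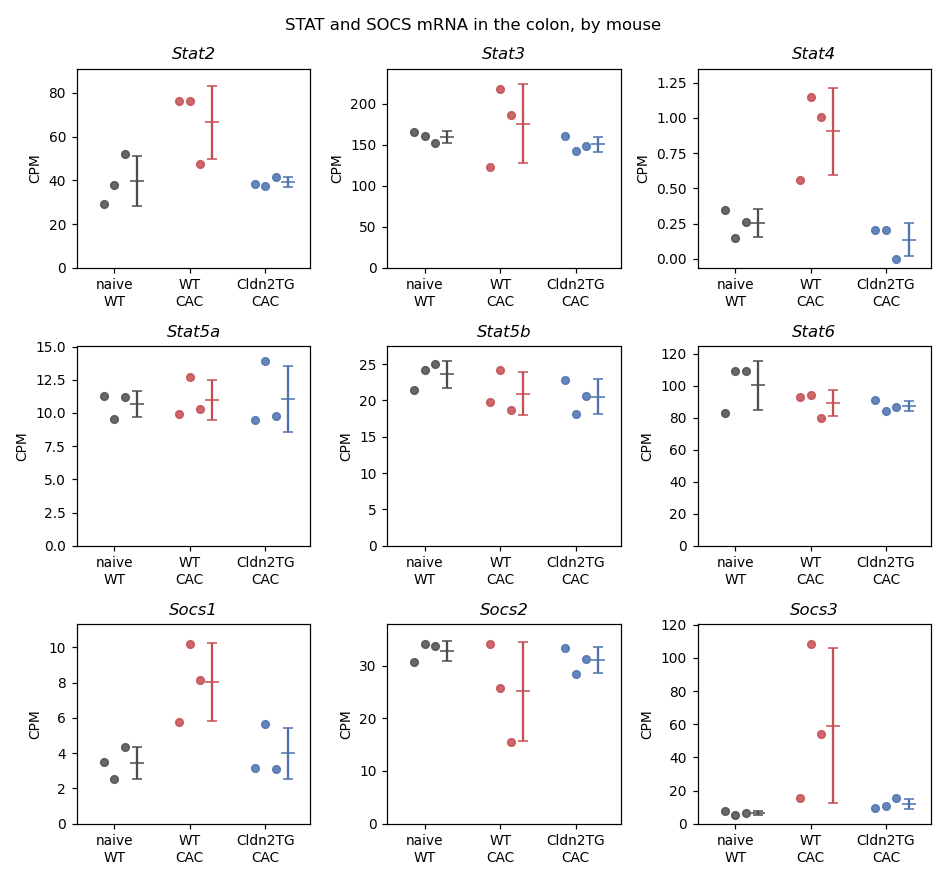
Level of each member in CPM, with 1 point per mouse in the order of the mouse numbers and, beside the points of each group, the mean with its SD (n = 3). Socs3, Socs1 and Stat4 are higher in all WT CAC than in all naive mice, while Stat5a, Stat5b and Stat6 overlap in the 3 groups.

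The comparison of Cldn2TG CAC with WT CAC asks what the transgene changed in treated mice, and it shares the WT CAC mice with the comparison above, so that the values of these mice enter both with opposite sign. Stat2 was the one member called and was lower in Cldn2TG CAC colon. This was 1 of 8 members tested (12.5%), close to the 9.54% called among all 14888 genes tested, with 7.35% of genes lower, 2.19% higher and 23.5% at an unadjusted p under 0.05. Stat4 had too few counts to be tested. The groups of 2 tested members, Stat2 and Socs1, did not overlap, as was true of 28.5% of genes.

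Stat2 had 38.5, 37.3 and 41.7 CPM in Cldn2TG CAC mice, below all 3 WT CAC mice (76.1, 76.3 and 47.3 CPM) and with less spread. The log2 fold change was -0.79 (SE 0.19, adjusted p = 0.0342, edgeR), or 1.73-fold lower. It was called under all 9 other settings that kept every library, with adjusted p = 0.00281 to 0.0390. It was also called without mouse 4 or 6 and not without mouse 5, 7, 8 or 9, where the adjusted p was 0.108 to 0.142 and the log2 fold change -0.83 to -0.69.

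Socs3 had 9.64, 10.7 and 15.6 CPM in Cldn2TG CAC mice. Mouse 9, with 15.6, was just above WT CAC mouse 4, with 15.2, and the other WT CAC mice were far higher. The log2 fold change of -2.33 did not pass the test (SE 0.66, 95% interval -3.92 to -0.73, adjusted p = 0.0835, edgeR). DESeq2 called it (0.0188), as did the fit of all 9 libraries (0.0356) and the fit without mouse 4 (log2 fold change -2.78, adjusted p = 0.00150).

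Socs1 had 3.17, 5.68 and 3.10 CPM in Cldn2TG CAC mice, and mouse 8, with 5.68, lay just under WT CAC mouse 4, with 5.79. Its log2 fold change was -1.03 (SE 0.32, 95% interval -1.75 to -0.30, adjusted p = 0.0826, edgeR). It was called by DESeq2 (0.0272), without the filter on low counts (0.0458) and without mouse 4 (0.0195).

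Stat4 had 3, 4 and 0 counts in the Cldn2TG CAC libraries (0.207, 0.203 and 0 CPM), all below the lowest WT CAC library. With no filter on low counts its log2 fold change was -2.59 (SE 0.69, adjusted p = 0.0217, edgeR), a value that rests on 7 counts in the group and depends on the model at such levels. It was also called with all 9 libraries in 1 fit (-2.61, 0.0224) and without mouse 4 (-2.85, 0.0133), and not without mouse 6, 7, 8 or 9 (adjusted p = 0.110 to 0.132), while without mouse 5 it had too few counts to be tested. The other 5 members had log2 fold changes between -0.24 (Stat3) and 0.28 (Socs2), and none was called. Stat3 had 161, 143 and 148 CPM in Cldn2TG CAC mice, between WT CAC mouse 4 and mouse 6, and without mouse 4 its log2 fold change was -0.44 with adjusted p = 0.0460. Socs2 had 33.3, 28.4 and 31.2 CPM. For Stat5a, Stat5b and Stat6 the 95% intervals ran from -0.50 to 0.47.

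**Figure D3:**
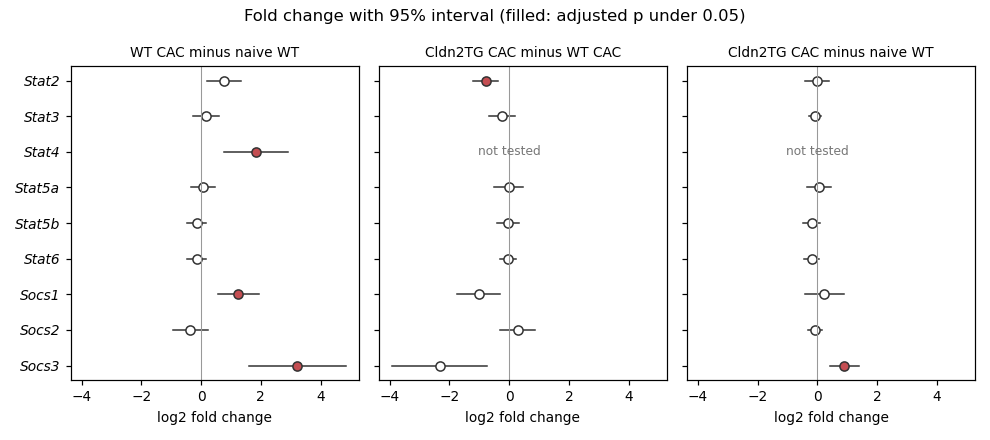
Log2 fold change of each member with its 95% interval in the 3 comparisons, filled where the adjusted p is under 0.05 (edgeR's quasi-likelihood test). Socs3, Socs1 and Stat4 are filled in WT CAC against naive WT, Stat2 in Cldn2TG CAC against WT CAC and Socs3 in Cldn2TG CAC against naive WT.

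Against naive WT, Cldn2TG CAC mice differed in genotype and treatment together, and the naive mice are shared with the first comparison. Socs3 was called and higher, 1 of 8 members tested (12.5%) beside 10.0% of 15013 genes with 3.92% higher, 6.07% lower and 26.0% at an unadjusted p under 0.05. All 3 Cldn2TG CAC mice (9.64 to 15.6 CPM) were above all naive mice (5.02 to 7.61 CPM), and groups of either direction did not overlap in 31.2% of genes. With a log2 fold change of 0.90 (SE 0.22, adjusted p = 0.0300, edgeR), Socs3 was 1.87-fold higher. The call was lost without mouse 2, 3, 8 or 9 (adjusted p = 0.0658 to 0.0956), and with all 9 libraries in 1 fit, where the spread of the WT CAC mice enters, the adjusted p was 0.460. Stat2 and Socs1 overlapped with naive WT, at log2 fold changes of -0.02 (95% interval -0.42 to 0.38) and 0.22 (-0.43 to 0.88). Stat3, Stat5a, Stat5b, Stat6 and Socs2 had log2 fold changes between -0.20 and 0.06, and Stat4 was not tested.

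Ratios between members of the same library remove what scales both genes alike. The level of Socs3 per kb was 0.105 to 0.154 of that of Stat3 in naive mice, 0.409 to 1.64 in WT CAC mice and 0.199 to 0.349 in Cldn2TG CAC mice. The 3 groups did not overlap, and only in mouse 5 was Socs3 above Stat3. Socs3 alone did overlap between the treated groups, with 15.2 CPM in WT CAC mouse 4 and 15.6 CPM in Cldn2TG CAC mouse 9. Stat3 was at 123 CPM in mouse 4, the lowest of all mice, and at 148 CPM in mouse 9. The separation of the treated groups thus rests on the Stat3 level of mouse 4. The mean log2 ratio was -2.91 ± 0.29 in naive WT, -0.21 ± 1.01 in WT CAC and -1.95 ± 0.41 in Cldn2TG CAC (SD, n = 3). Each of the 3 differences had p = 0.1 in the two-sided exact permutation test, the smallest that 3 mice against 3 allow (0.2 after Benjamini-Hochberg adjustment over 6 ratio tests), so this test cannot reach 0.05 for a single ratio. The log2 ratio of Stat5b to Stat5a was 1.5 ± 0.21, 1.28 ± 0.07 and 1.27 ± 0.47 in the same order, with exact permutation p of 0.3 to 1. Stat5a and Stat5b are near-identical over much of their coding sequence, and how the counting treated reads that match both is not given in the sources used here.

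**Figure D4:**
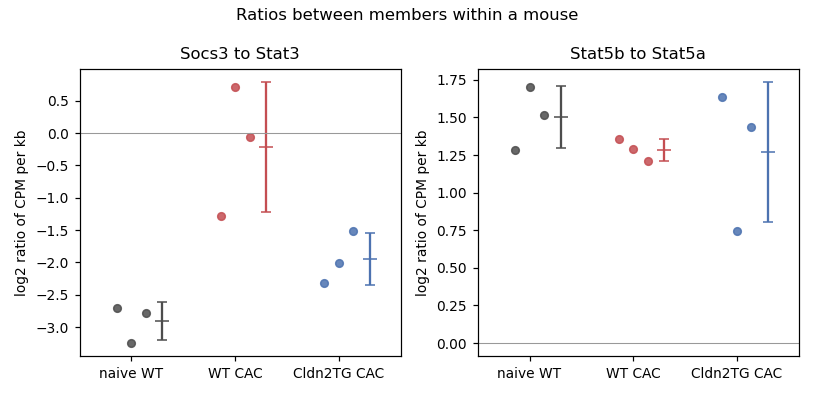
Log2 ratio of the levels per kb of Socs3 to Stat3 and of Stat5b to Stat5a, with 1 point per mouse and the mean with its SD (n = 3) beside each group. The Socs3 to Stat3 ratio separates the 3 groups, while the Stat5b to Stat5a ratio overlaps in all of them. Between the treated groups the separation rests on the low Stat3 level of WT CAC mouse 4.

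The genes with the most similar pattern over the 9 libraries, by root mean square difference of centred log2 CPM among 13891 genes, were Gm20559 (0.150) and Irf7 (0.192) for Stat2, whose own spread by this measure was 0.442. For Socs1, with a spread of 0.632, they were Nfkbie (0.227) and Fhl2 (0.233), and for Socs3, with 1.37, Clca4c-ps (0.268) and Trim15 (0.270). For Stat4, with 1.04, they were Lyz2 (0.230) and Ccr1 (0.239). The mean of Stat4 was 0.431 CPM, below the 1 CPM asked of the genes compared. Its pattern rests on 0 to 26 counts per library and depends on the prior count of 2 added before the log. The members that varied least had near neighbours at 0.0621 to 0.113, which were Pik3cb and Atl3 for Stat3, Dhx37 and Zfp141 for Stat5a, Pxk and Zfp91 for Stat5b, Gtf2ird1 and Irak1 for Stat6 and Dop1b and Thbs4 for Socs2.

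The genes lie in clusters that bear on how they can be counted. On chromosome 11 (GRCm38) Stat5b (chr11:100780731-100850724, minus strand), Stat5a (chr11:100859351-100885169, plus strand) and Stat3 (chr11:100885098-100939540, minus strand) follow each other, and the 3′ ends of Stat5a and Stat3 overlap by 72 bases on opposite strands. The strand setting of the counting is not given in the sources used here, so reads in those bases cannot be told apart. Socs3 lies farther along the same chromosome (chr11:117966079-117970047, minus strand). Stat6 (chr10:127642986-127660957, plus strand), which overlaps Nab2 on the other strand, and Stat2 (chr10:128270576-128292849, plus strand) share chromosome 10 with Socs2 (chr10:95385362-95417180, minus strand), while Stat4 (chr1:51987148-52107189, plus strand) and Socs1 (chr16:10783808-10785536, minus strand) lie on chromosomes of their own. Stat4 overlaps Gm28177 on the same strand and the pseudogene Gm3940 on the other strand, which had 3 and 27 counts over all libraries.

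The genes around the members in the pathway were read as lists of ligands, receptors, kinases, inhibitors and well-known targets. The counts of calls below stand beside the shares over all genes tested. These were 15.0% in WT CAC against naive WT, 9.54% in Cldn2TG CAC against WT CAC and 10.0% in Cldn2TG CAC against naive WT. Single calls in lists of 8, 10 or 16 genes lie near these shares. Upstream, cytokine mRNAs were scarce. Of 23 ligand genes, 5 passed the filter on low counts for WT CAC against naive WT, and 2 of these were higher, Il23a (1.53 ± 1.41 against 0.141 ± 0.0380 CPM), a subunit of interleukin 23, and Ebi3 (0.667 ± 0.0461 against 0.195 ± 0.106 CPM), a subunit of interleukin 27. Both passed the filter only where the WT CAC libraries were in the fit, so their entry into the test was tied to their difference. Neither was called with at least 10 counts in every library or in either lane alone. Ebi3 was also not called by DESeq2, with no filter on low counts or with voom, which left it called under 3 of 9 other settings. It lost its call in all 6 fits that left out 1 mouse, and Il23a lost it without mouse 1, 2 or 3. None of 4 tested was called in Cldn2TG CAC against WT CAC by edgeR or DESeq2 and 1 had an unadjusted p under 0.05, while 2 were called without the filter on low counts and 3 without mouse 4. For Cldn2TG CAC against naive WT none of 3 was called by either tool or had an unadjusted p under 0.05.

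Receptors of STAT3-activating cytokines were higher in 4 of 12 cases in WT CAC than in naive colon and lower in 7 of 12 cases in Cldn2TG CAC than in WT CAC. Of all genes tested, 8.04% were higher in the first of these comparisons and 7.35% lower in the second. The 4 that rose were Osmr, the oncostatin M receptor (log2 fold change 2.17, adjusted p = 0.0379, edgeR), Il10rb (0.38, 0.0491), Il27ra (1.91, 0.0446) and Csf3r, the G-CSF receptor of neutrophils (3.88, 0.0410). Il27ra and Csf3r passed the filter only where the WT CAC libraries were in the fit, so their calls in both comparisons with WT CAC are tied to their level there. In Cldn2TG CAC, Il6st, the gp130 chain shared by the interleukin 6 family, fell from 50.7 ± 11.5 to 30.5 ± 5.65 CPM (log2 fold change -0.75, adjusted p = 0.0484, edgeR) and Osmr from 10.0 ± 6.55 to 1.41 ± 0.508 CPM (-2.85, 0.0275). The other 5 that fell were Il10ra, Il21r, Il27ra, Csf3r and Lepr, between -5.12 and -1.84 on the log2 scale. Il6st was also lower in Cldn2TG CAC than in naive WT (46.5 ± 1.62 CPM, log2 fold change -0.60, adjusted p = 0.0201, edgeR), as was Lepr, the leptin receptor (-1.63, 0.0170), while Il11ra1 was higher (0.53, 0.0407).

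Receptors upstream of STAT5 behaved in a like manner, with 5 of 11 higher and 1 lower in WT CAC than in naive WT, and 8 of 11 lower and 1 higher in Cldn2TG CAC than in WT CAC. Over all genes 8.04% were higher and 6.92% lower in the first comparison, and 7.35% lower and 2.19% higher in the second. The most abundant of the 5 were Il3ra (4.45 ± 0.836 to 10.2 ± 4.08 CPM) and Il2rg, the common gamma chain (1.34 ± 0.652 to 3.99 ± 0.772 CPM). In Cldn2TG CAC the most abundant of the 8 were Csf2ra, a GM-CSF receptor chain (18.6 ± 0.188 to 12.5 ± 0.618 CPM) and Crlf2, the TSLP receptor (13.0 ± 5.35 to 4.92 ± 0.620 CPM). Il2ra, Il7r and Il5ra, which are among both the 5 and the 8, passed the filter only with the WT CAC libraries, with the same tie. Prlr, the prolactin receptor, went the other way and is named after its values were seen. It had 3.27 ± 1.15 CPM in naive WT, 0.335 ± 0.116 in WT CAC and 2.65 ± 0.910 in Cldn2TG CAC, with log2 fold changes of -3.21 (adjusted p = 0.00763, edgeR) and 2.90 (0.00879). None of the 8 STAT5 receptors tested was called in Cldn2TG CAC against naive WT by edgeR or by DESeq2, and 1 had an unadjusted p under 0.05.

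For the other pathways, Il4ra, the receptor chain for interleukins 4 and 13, fell from 83.7 ± 45.2 CPM in WT CAC to 21.1 ± 3.32 CPM in Cldn2TG CAC (log2 fold change -2.01, adjusted p = 0.0305, edgeR), and had 30.0 ± 6.33 CPM in naive WT. Of the 2 STAT6 receptors tested, none was called against naive WT by edgeR with each comparison's 6 libraries, TMM factors and the filter, 1 had an unadjusted p under 0.05 in each case, and DESeq2 called 1 in WT CAC and 0 in Cldn2TG CAC, while both were called in WT CAC without mouse 4. With all 9 libraries in 1 fit, or with voom, 1 was called in WT CAC, and with library size only, or no filter, 1 was called in Cldn2TG CAC. Of the 3 STAT4 receptors, 1 was tested, in WT CAC against naive WT, and neither tool called it, with an unadjusted p under 0.05. Of the interferon receptors and Irf9, none of 4 was called in any comparison by edgeR with each comparison's 6 libraries and the filter. In each of the comparisons with WT CAC 1 was called without mouse 4 and with all 9 libraries in 1 fit, and in Cldn2TG CAC against WT CAC 1 was called with no filter on low counts. An unadjusted p under 0.05 was found for 1 of them in WT CAC against naive WT, 2 in Cldn2TG CAC against WT CAC and 0 in Cldn2TG CAC against naive WT, and DESeq2 called 1, 1 and 0. Among the 4 Janus kinases, Jak3, the kinase of the common gamma chain, was lower in Cldn2TG CAC than in WT CAC (12.2 ± 0.936 against 20.5 ± 4.94 CPM, log2 fold change -0.77, adjusted p = 0.0455, edgeR). In the other comparisons neither tool called a Janus kinase, with 0 and 1 at an unadjusted p under 0.05, although 1 was called in WT CAC against naive WT without mouse 4. Of 8 other inhibitors of the pathway, Ptpn6, a phosphatase, rose from 29.9 ± 1.07 to 40.0 ± 0.401 CPM in WT CAC (adjusted p = 0.0265, edgeR) and was 29.5 ± 1.86 CPM in Cldn2TG CAC (0.0422). Of the 5 other SOCS genes none was called by edgeR or DESeq2 or had an unadjusted p under 0.05 in the comparisons with WT CAC, although 1 was called in WT CAC against naive WT without mouse 4, and Socs4 and Socs6 were higher in Cldn2TG CAC than in naive WT, by 0.41 and 0.39 on the log2 scale (adjusted p = 0.0357 and 0.0351, edgeR).

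Downstream, the known targets were read in the same way. Of 16 STAT3 targets tested, 5 were higher in WT CAC than in naive WT and none lower. These were Il1rn, the interleukin 1 receptor antagonist (133 ± 15.6 to 204 ± 28.7 CPM), Bcl3 (58.7 ± 7.19 to 123 ± 35.9 CPM), Cebpb, and the antimicrobial and acute-phase genes Reg3g and Saa3, while Myc and Pim1 had log2 fold changes of 0.20 and 0.01. Saa3 passed the filter only with the WT CAC libraries. None of the 16 was called without mouse 2 or 3, 9 were called without mouse 4, and 3 to 7 were called under the settings that kept every library. For Cldn2TG CAC against WT CAC the single call was Cebpd (89.4 ± 26.5 to 50.7 ± 2.67 CPM, log2 fold change -0.84, adjusted p = 0.0396, edgeR). That is 1 of 16, beside 9.54% of all genes called. There 9 of the 16 had an unadjusted p under 0.05, DESeq2 called 5, and 8 were called without mouse 4 and 0 without mouse 5, 6, 7, 8 or 9. In Cldn2TG CAC against naive WT, Mcl1, a survival factor of the BCL2 family (461 ± 54.1 to 722 ± 37.9 CPM), Vegfa and Cebpb were higher and Cebpd was lower, of 15 tested.

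Of 10 interferon targets of STAT2 and IRF9, 1 was called in WT CAC against naive WT, beside 15.0% of all genes. This was Ifit2, at 8.96 ± 4.60 CPM in naive WT and 70.2 ± 63.3 CPM in WT CAC (log2 fold change 2.99, adjusted p = 0.0464, edgeR). In Cldn2TG CAC 2 were lower than in WT CAC, Ifit2 (5.53 ± 2.61 CPM) and Usp18 (3.37 ± 1.79 against 18.6 ± 11.7 CPM). Of the 10, 9 had a positive log2 fold change in WT CAC against naive WT and 9 a negative one in Cldn2TG CAC against WT CAC, with 5 and 7 at an unadjusted p under 0.05, 4 and 5 called by DESeq2 and 3 and 4 called without mouse 4. Without mouse 1, 2, 3 or 6 none was called in the first comparison, nor without mouse 7, 8 or 9 in the second. The remaining 8 were not called in the second comparison by edgeR, and Irf7, whose pattern was among those most like that of Stat2, had a log2 fold change of -0.62 (adjusted p = 0.166, edgeR). For Cldn2TG CAC against naive WT none of the 10 was called by edgeR or DESeq2 or had an unadjusted p under 0.05. Of the known STAT4 targets, 2 of 3 tested, Il18r1 and Il18rap, were higher in WT CAC than in naive WT, but both passed the filter only with the WT CAC libraries, and neither was called without mouse 1, 2, 3, 5 or 6. Of 5 STAT6 targets, Arg1 and Mrc1, which mark macrophages activated by interleukins 4 and 13, were higher in WT CAC and lower again in Cldn2TG CAC, with Arg1 at 0.266 ± 0.102, 28.6 ± 23.6 and 0.235 ± 0.0525 CPM in naive WT, WT CAC and Cldn2TG CAC. Arg1 likewise passed the filter only with the WT CAC libraries. Of these 5 targets, 3 had a positive and 2 a negative log2 fold change in WT CAC against naive WT. In Cldn2TG CAC against WT CAC 2 had a positive and 3 a negative one.

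**Figure D5:**
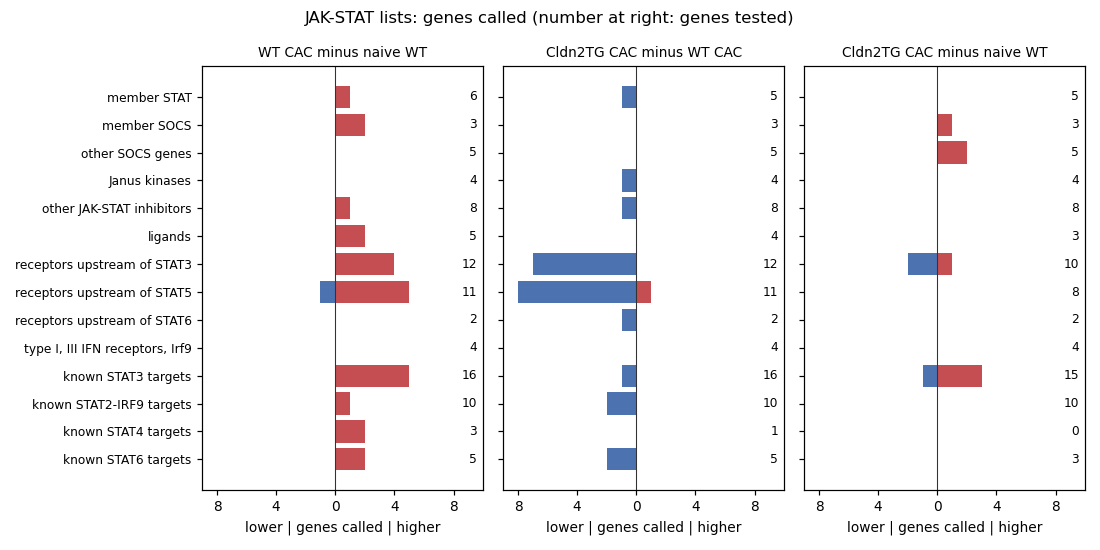
Number of genes called higher (to the right) and lower (to the left) in each list of the pathway, by comparison, with the number tested at the right edge. Receptors upstream of STAT3 and STAT5 hold the most calls, 7 and 8 lower in Cldn2TG CAC than in WT CAC, beside 7.35% of all genes. These counts include receptors that passed the filter only with the WT CAC libraries.

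The median log2 fold changes of the lists, beside 0.02, 0.01 and 0.00 over all genes, are given as a description, since genes with low counts entered a test through the group where they were high. They were 0.42, -1.30 and -0.48 for the STAT3 receptors in WT CAC against naive WT, Cldn2TG CAC against WT CAC and Cldn2TG CAC against naive WT. In the same order they were 1.60, -2.08 and -0.33 for the STAT5 receptors, 0.32, -0.27 and 0.22 for the STAT3 targets and 1.02, -1.17 and -0.32 for the STAT2 and IRF9 targets. The Janus kinases (0.07, -0.19 and -0.12) lay nearer to 0 than these lists in each comparison. The other SOCS genes did so in the first and second (0.15 and 0.10). In the third their median of 0.27 lay farther from 0 than the 0.22 of the STAT3 targets.

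The list counts depended on single mice and on the filter, lane and tool. The STAT3 receptors called in WT CAC against naive WT numbered 1 with lane 2 alone and 7 with DESeq2, and in Cldn2TG CAC against WT CAC 3 with at least 10 counts in every library. For the STAT5 receptors the counts were 2 with at least 10 counts in every library in the first comparison and 4 with lane 2 alone in the second. In WT CAC against naive WT the STAT3 receptors called numbered 0 without mouse 2, 5 or 6 and 4 without mouse 4, and the STAT5 receptors 1 without mouse 2 or 3 and 9 without mouse 4. In Cldn2TG CAC against WT CAC the STAT3 receptors numbered 0 without mouse 8 or 9 and the STAT5 receptors 0 without mouse 8, and without mouse 4 they numbered 7 and 10. The calls of Il4ra, Jak3, Ptpn6, Arg1 and Mrc1 in that comparison were each lost without mouse 5, 6, 7, 8 or 9. In WT CAC against naive WT those of Ptpn6, Arg1 and Mrc1 were each lost without mouse 1, 2, 3, 5 or 6. Of the other SOCS genes 0 to 1 were called in Cldn2TG CAC against naive WT when 1 mouse was left out. Of the pathway genes called, Prlr alone of 23 kept its call in all 6 fits that left out 1 mouse in the first comparison, none of 24 did in the second, and Mcl1 and Cebpd of 9 did in the third. Under all 9 settings that kept every library 4, 5 and 0 of these kept their call, and in the third comparison none of the STAT3 targets, Mcl1 and Cebpd included, was called with all 9 libraries in 1 fit.

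Markers of several immune cell types differed between the same groups. The summed level of 8 T cell markers was 3.41 to 7.77 CPM in naive WT, 16.6 to 31.0 CPM in WT CAC and 4.26 to 7.83 CPM in Cldn2TG CAC, with 7 of 8 called higher in WT CAC than in naive WT and 6 of 8 lower in Cldn2TG CAC than in WT CAC. Over all genes 8.04% were higher in the first of these comparisons and 7.35% lower in the second. Of the called markers, Cd5, Cd247, S100a8 and S100a9 passed the filter only with the WT CAC libraries. All 7 T cell calls of the first comparison were lost without mouse 2 and all 6 of the second without mouse 8. Of 6 macrophage markers tested 4 were called in each of these comparisons, in the same directions, with sums of 57.5 to 63.2, 79.1 to 153 and 39.8 to 69.4 CPM. All 4 were lost without mouse 1, 2 or 3 in the first and without mouse 8 or 9 in the second. The neutrophil genes S100a8 and S100a9 were at 10.8 ± 9.24 and 11.6 ± 10.7 CPM in WT CAC and at 0.103 to 0.184 CPM in the mean of the other groups, while Ly6g, which made up most of the neutrophil sum, was at 314 ± 14.7 CPM in WT CAC and 328 ± 24.3 CPM in Cldn2TG CAC. Ly6g was higher than in naive WT in WT CAC (log2 fold change 0.82, adjusted p = 0.0206, edgeR) and in Cldn2TG CAC (0.87, 0.00881). The first call was lost without mouse 2, 3 or 5, and the second was kept in all 6 fits that left out 1 mouse. Neutrophil sums were 137 to 207 CPM in naive WT, 299 to 370 in WT CAC and 302 to 351 in Cldn2TG CAC. The 6 B cell markers summed to 3.82 to 31.8, 28.2 to 55.9 and 3.03 to 20.1 CPM, and the 7 NK and cytotoxic markers to 1.19 to 5.17, 4.98 to 24.2 and 2.07 to 4.43 CPM. Their part in the differences of Socs3, Socs1, Stat4, Stat2 and the receptors was not tested, and in bulk RNA fewer cells of a type and less RNA per cell cannot be told apart.

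Epithelial markers, the defining check of the labelled tissue, summed to 11142 to 12137 CPM in naive WT, 11241 to 13019 in WT CAC and 12330 to 15047 in Cldn2TG CAC, and none of 7 was called in the comparisons with WT CAC by edgeR, with 2 at an unadjusted p under 0.05 against naive WT and 1 in Cldn2TG CAC. For Cldn2TG CAC against naive WT 1 of 7 was called, beside 10.0% of all genes, and 3 had an unadjusted p under 0.05. The called marker, Krt8, was higher (log2 fold change 0.43, adjusted p = 0.0384, edgeR), and its call was lost without mouse 1, 2, 3, 8 or 9. Fibroblast markers summed to 292 to 422, 446 to 1119 and 181 to 260 CPM, smooth muscle markers to 1954 to 3966, 1036 to 2875 and 939 to 1452 CPM, and endothelial markers to 31.3 to 39.9, 33.0 to 42.9 and 19.5 to 22.7 CPM. Endothelial and fibroblast sums were lower in every Cldn2TG CAC mouse than in every other mouse, while smooth muscle sums overlapped between WT CAC and Cldn2TG CAC. None of the 6 fibroblast, 6 smooth muscle or 5 endothelial markers was called in WT CAC against naive WT by edgeR, with 4, 1 and 0 at an unadjusted p under 0.05, and in Cldn2TG CAC against WT CAC 2, 0 and 2 were called, all lower. In Cldn2TG CAC against naive WT 1, 2 and 3 of them were called, all lower. Lepr and Il6st were lower in Cldn2TG CAC than in both other groups. The part of these cells in the differences of Lepr and Il6st was not tested.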

How the data were processed

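The authors isolated colon RNA with a Quick-RNA kit, sequenced it on an Illumina NovaSeq6000 and deposited raw counts per gene, 18 columns for 2 lanes of 9 libraries, beside the exon length of each gene. The submitters' processing notes name HISAT2, featureCounts of Subread and GRCm38, whereas the study's methods name TopHat2 with featureCounts, so the aligner is uncertain, and versions and strand setting are not given in the sources used here. Lanes were summed. All columns of counts were used. A table of gene names matched 47224 identifiers and 505 had none, and positions are from the GENCODE annotation of GRCm38.

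Each comparison was fitted on its 6 libraries with edgeR 4.0.16 (R 4.3.3), TMM factors, filterByExpr (minimum count 10, minimum total 15) and a two-sided quasi-likelihood test, adjusted over all genes tested by the Benjamini-Hochberg method. CPM per mouse used TMM factors over all 9 libraries, and ratios per kb and likeness of pattern used log2 CPM with prior count 2, with 0.5 as an alternative for the ratios. Replicates are 3 libraries per group, read as 1 mouse each from their numbers, so p-values measure the spread between these libraries, of 14142711 to 22262546 counts each. Alternatives were DESeq2 1.42.0, library size only, upper-quartile scaling, no filter, at least 10 counts in every library, all 9 libraries in 1 fit, each lane, limma 3.58.1 voom with a weight for each group and leaving out each mouse, and list counts under these settings were added after the data were seen. The fits were tested on simulated data. Figures were made with matplotlib 3.10.9.

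The members, gene lists and tests were chosen with earlier results of these data known. Named were all members, the 2 genes most like each, and the called genes of a list with the 2 largest mean levels, all of them where 5 or fewer were called, with Prlr, Myc, Pim1, the markers and the 5 further receptors of STAT3 that were lower in Cldn2TG CAC named after their values were seen.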

Additional observations from a re-analysis of the deposited data

How the results depend on the processing

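The number of members called was 3, 1 and 1 in WT CAC against naive WT, Cldn2TG CAC against WT CAC and Cldn2TG CAC against naive WT. With 1 mouse left out it ranged from 0 to 5, from 0 to 5 and from 0 to 1, with the 5 in both cases without WT CAC mouse 4. Lane 1 alone gave 1 in the first comparison. DESeq2, no filter and all 9 libraries in 1 fit each gave 3 in the second, and the last of these gave 0 in the third. Genes called over the whole table numbered 135 to 4080, 58 to 2894 and 525 to 1383 with 1 mouse left out, against 2310, 1421 and 1501. They numbered 908 (at least 10 counts) and 2136 (all 9 libraries) in the second comparison and 2567 (no filter) and 445 (all 9 libraries) in the third. Of 222 member fold changes from fits of all libraries, 204 kept direction and side of the threshold. Those that changed sign were uncalled and near 0. In WT CAC against naive WT this was Stat5a (-0.10, lane 2). In Cldn2TG CAC against WT CAC they were Stat5a (0.0073, no filter, and 0.065, lane 1) and Stat5b (0.025, lane 1). In Cldn2TG CAC against naive WT they were Stat5a (-0.054, library size only, and -0.17, lane 2), Socs2 (0.00044, lane 1) and Stat2 (0.0087, voom). With 1 mouse left out, signs changed in the first comparison for Stat3 (-0.0086 to 0.36) and Stat5a (-0.043 to 0.13), in the second for Stat5a (-0.21 to 0.094) and Stat5b (-0.13 to 0.060), and in the third for Stat5a (-0.15 to 0.15), Stat2 (-0.19 to 0.22) and Socs1 (-0.14 to 0.42). The difference in the log2 ratio of Stat5b to Stat5a turned from -0.22 to 0.090 with lane 2 alone in the first comparison, and ranged from -0.32 to -0.12, -0.19 to 0.25 and -0.41 to 0.032 in the 3 comparisons with 1 mouse left out. The Socs3 to Stat3 ratio kept its direction in every fit. The cause of these changes was not tested. No paired analysis was possible because each mouse has its own number. Counting error limits Stat4, which rests on 0 to 26 counts per library.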
